A study of Mus musculus with 6 samples.

Results

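A set of 10 genes of the NF-κB response was followed through mouse islet cells that had or lacked 14-3-3ζ, the scaffold protein encoded by Ywhaz. The genes were Nfkbiz, Nfkbia, Tnfaip3, Cd44, Cd82, Clu, Cxcl1, Cxcl2, Ccl2 and Icam1, which are 10 of the 32285 genes in the count tables. They were selected on measured values, the differences of Nfkbiz, Cd44, Cd82 and Clu between knockout and WT β cells in these libraries, so their β cell differences are given as a description, and counts of them past a threshold there support nothing. Cells came from 6 single-cell RNA-Seq libraries, 3 of WT islets and 3 of β cell-specific knockout (β14-3-3ζKO) islets. All mice were C57/BL6 animals of 12 to 14 weeks. The knockout combined the Ins1-CreThor driver with Ywhaz alleles whose exon 4 lay between LoxP sites, so recombination was directed to insulin-producing cells. The labels call the control mice wild type, and by the study's methods they were littermates that carried the Cre without the floxed alleles. The islets had recovered overnight in culture, were dispersed with trypsin and were cleared of dead cells, and each library was one 10x Chromium 3' run. The study counts as many mice as there are libraries in each genotype, although the labels do not tie a library to a mouse, and p-values measure the spread between these libraries.

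NF-κB is a family of dimeric transcription factors that wait in the cytoplasm, bound to inhibitors of the IκB family, until cytokines such as TNF or interleukin-1, or microbial products, trigger the destruction of the inhibitor. The freed factors switch on inflammatory genes and also their own brakes, among them Nfkbia, which encodes the inhibitor IκBα, and Tnfaip3, which encodes the ubiquitin-editing enzyme A20. In islets the pathway is best known from the response of β cells to interleukin-1β and from the chemokines that draw leukocytes into stressed tissue. Nfkbiz encodes IκBζ, a nuclear family member that acts as a cofactor for a subset of NF-κB targets. Cxcl1, Cxcl2 and Ccl2 encode chemokines for neutrophils and monocytes, Icam1 an adhesion molecule for leukocytes, Cd44 the hyaluronan receptor, Cd82 a tetraspanin and Clu the secreted chaperone clusterin.

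The NF-κB binding sequence is shown where it lies just before a start site, because it sets the genes with a direct binding sequence at hand beside those without one. Promoter windows were found in RefSeq (GRCm38.p6) for 7 of the 10 genes, namely Nfkbia, Tnfaip3, Cd44, Cd82, Cxcl1, Cxcl2 and Icam1. The κB consensus, a motif of 10 letters searched on both strands, occurred in the 250 bases before a start site for 4 of them. Among all 32851 windows of the same length, 3.90% held a match, and 4.46% of the 27025 genes with a window had one in any window. The matches are in capitals, written 5' to 3' along the gene's strand.
Nfkbia, chr12:55492648-55492706, minus strand, 29 to 20 bases before the start: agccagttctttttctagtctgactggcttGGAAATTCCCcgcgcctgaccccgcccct
Tnfaip3, chr10:19015516-19015545, minus strand, 125 to 116 bases before the start: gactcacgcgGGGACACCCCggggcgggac
Tnfaip3, chr10:19015411-19015432, minus strand, 12 to 3 bases before the start: aatttccatcGGAAATCCCCct
Cxcl1, chr5:90891144-90891204, plus strand, 71 to 61 bases before the start: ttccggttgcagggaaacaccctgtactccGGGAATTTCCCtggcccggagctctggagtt
Cxcl2, chr5:90903772-90903832, plus strand, 97 to 87 bases before the start: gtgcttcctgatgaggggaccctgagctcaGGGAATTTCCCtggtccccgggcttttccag
In Cxcl1 and Cxcl2, which are neighbours on chromosome 5, a match on each strand was shifted by 1 base from the other, so the capitals run over 11 letters. For Cd44 (1 start site), Cd82 (4 start sites) and Icam1 (1 start site), these letters were not in the window searched. A match is a description of the sequence and says nothing of binding in islets.

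The libraries held 43445 barcodes, of which 25576 passed the cell filters and fell into 26 clusters; 80 barcodes recurred in more than 1 library. β cell-like cells made up 5942 of them. Following the study, KO β cells with a UMI of Ywhaz were left out, which left 2666 WT and 2008 KO cells, or 605 to 941 per library, with 15771769 to 36705179 UMIs in the sum of each. Ywhaz, the targeted gene, stood at 125, 168 and 161 UMIs per 1000000 (CPM) in all β cells of WT libraries 1 to 3 and at 18.5, 16.6 and 18.5 CPM in all β cells of KO libraries 1 to 3. WT library 1 stood apart: its β cells had the highest median depth (41744 UMIs, against 21792 to 31822 in the others), and 27.3% of them lay in a cluster led by heat shock genes, against 4.65% to 13.1%. KO library 2 had 64.5% of its β cells in the smaller of the other β cell clusters, against 15.4% to 39.2% elsewhere. Insulin 2 (Ins2) alone took 300158 to 396052 of each 1000000 UMIs in β cells, so every CPM there is a share of RNA that insulin dominates. Between same-numbered libraries Ins2 differed by -0.14, 0.33 and 0.21 on the log2 scale (KO minus WT, pairs 1 to 3). The part of this in the β cell differences was not tested.

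In β cells, Nfkbiz, Cd44 and Cd82 were lower and Clu was higher in each KO library than in the WT library of the same number, whereas the chemokines and Icam1 were barely detected in either genotype. Of the 10 genes, 5 had a UMI in over 15% of β cells of either genotype and entered the fit (Nfkbiz, Nfkbia, Cd44, Cd82 and Clu); Tnfaip3, Cxcl1, Cxcl2, Ccl2 and Icam1 did not. None of these 5 passed an FDR of 0.05 when libraries were compared without pairing, in a fit where 1 of 9318 genes did (0.0107%), and that gene was Ywhaz. The call of Ywhaz was fixed in advance, because leaving out KO cells with a Ywhaz UMI set its KO sums to 0. With the replicate number as a block, 4 of the 5 passed, where 20 of 9318 genes did (0.215%). These counts restate the choice of the genes and carry no further weight. No gene of the 5 had WT and KO libraries that did not overlap, against 5.78% of all 9318 genes.

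Nfkbiz, on the minus strand of chromosome 16 (55811375 to 55838899, GRCm38), stood at 20.4, 13.5 and 13.5 CPM in β cells of WT libraries 1, 2 and 3. In KO libraries 1, 2 and 3 it stood at 14.0, 6.72 and 9.47 CPM. The KO values were lower pair by pair, but KO library 1 lay just above WT libraries 2 and 3. The means were 15.8 ± 4.01 CPM in WT and 10.1 ± 3.68 CPM in KO (SD, n = 3 each), a fitted log2 fold change of -0.68 ± 0.29 (SE). Without WT library 1 the log2 fold change was -0.33, and without KO library 2 it was -0.50.

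**Figure D1:**
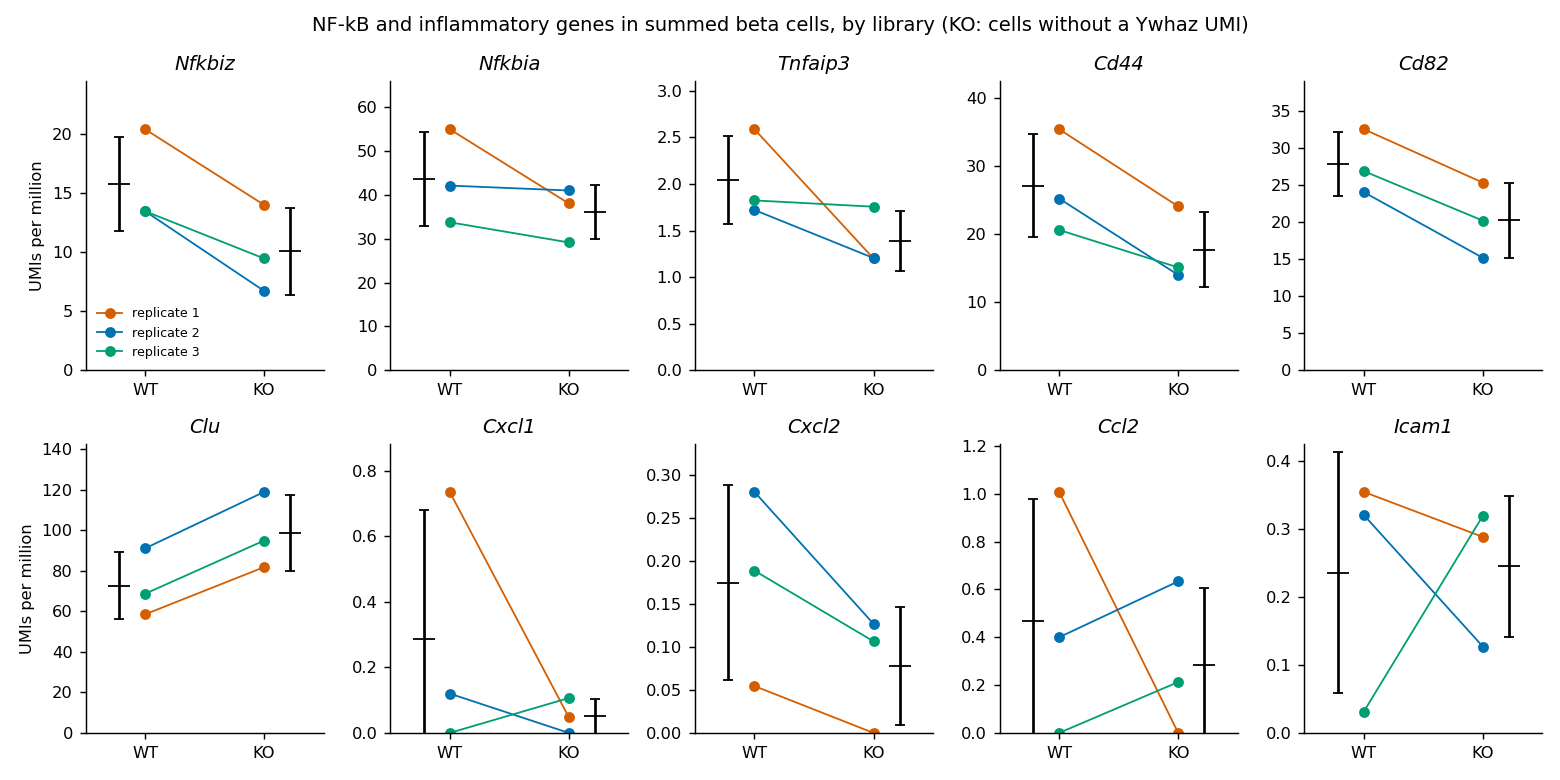
Level of each of the 10 genes in summed β cells, in UMIs per 1000000, for WT and KO libraries (KO cells with a Ywhaz UMI left out); lines join libraries of the same number, and the bars give the mean ± SD (n = 3). Nfkbiz, Cd44 and Cd82 fall and Clu climbs along each of the 3 lines, while the ranges of the genotypes overlap in every panel.

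Nfkbia, the gene of IκBα (chromosome 12, 55489410 to 55492647, minus strand), was the most abundant of the pathway's inhibitors in β cells. It stood at 55.01, 42.1 and 33.8 CPM in WT and at 38.1, 41.0 and 29.2 CPM in KO libraries 1 to 3. The pairs differed by -0.53, -0.04 and -0.21 on the log2 scale, so that pair 1 held most of the difference. The fitted log2 fold change was -0.30 ± 0.24 (SE), and it was 0.02 without WT library 1. Tnfaip3 (chromosome 10, 19000910 to 19015657, minus strand) was rare, with 2.59, 1.72 and 1.82 CPM in WT and 1.2, 1.2 and 1.76 CPM in KO. A single heat shock cluster cell of WT library 1 gave 23 of the 95 Tnfaip3 UMIs of that library. The same cell held 21 UMIs of Nfkbiz and 17 of Nfkbia, in 71500 UMIs. Without it WT library 1 stood at 1.97 CPM.

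Cd44, the hyaluronan receptor (chromosome 2, 102811141 to 102901665, minus strand), stood at 35.4, 25.3 and 20.6 CPM in WT and at 24.1, 14.0 and 15.1 CPM in KO. KO library 1 lay within the WT range, and the other KO libraries lay below it. Its log2 fold change was -0.64 ± 0.28 (SE), or -0.28 without WT library 1. Cd82, the tetraspanin (chromosome 2, 93419111 to 93463140, minus strand), stood at 32.5, 24.0 and 26.9 CPM in WT. In KO it stood at 25.3, 15.2 and 20.2 CPM, with KO library 1 again inside the WT range. The log2 fold change of Cd82 was -0.48 ± 0.20 (SE), or -0.25 without WT library 1. A small RNA gene and predicted genes overlap Cd44 and Cd82 in the annotation (GENCODE vM21).

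Clu, the clusterin gene (chromosome 14, 65968483 to 65981547, plus strand), moved the other way. It stood at 58.5, 91.1 and 68.7 CPM in WT and at 81.8, 118.9 and 94.9 CPM in KO, and only WT library 2 overlapped the KO range. The 3 pairs differed by 0.48, 0.39 and 0.47 on the log2 scale, the narrowest spread of pairs among the 5 genes fitted. Its log2 fold change was 0.46 ± 0.18 (SE), or 0.39 without WT library 1 and 0.24 without KO library 2. Ductal cells carry far more Clu than β cells, and their 8 markers summed to 246 to 367 CPM in WT β cells and 249 to 297 CPM in KO β cells. Cftr was at 0 UMIs in all 6 β cell sums. The part of ductal RNA in the Clu difference was not tested.

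The fitted differences of Nfkbiz, Cd44, Cd82 and Clu kept their direction in the larger and the smaller β cell cluster, with unequal size. The heat shock cluster was not fitted alone. In the larger cluster (3250 cells) the log2 fold changes were -0.35 for Nfkbiz, -0.47 for Cd44, -0.52 for Cd82 and 0.41 for Clu. In the smaller cluster (2067 cells) they were -0.65, -0.74, -0.50 and 0.48 in the same order. In the smaller cluster Nfkbiz was flat at 10.2 to 10.9 CPM across the WT libraries, and stood at 10.6, 5.36 and 5.05 CPM in KO libraries 1 to 3. In the heat shock cluster (625 cells) the Nfkbiz level was 15.4, 15.5 and 17.5 CPM in WT and 7.35, 3.65 and 2.20 CPM in KO, although KO libraries 2 and 3 rested on 2 UMIs each. Leaving that cluster out gave -0.54 for Nfkbiz, -0.66 for Cd44, -0.51 for Cd82 and 0.46 for Clu. Nfkbia was -0.13 in the larger and -0.08 in the smaller cluster.

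**Figure D2:**
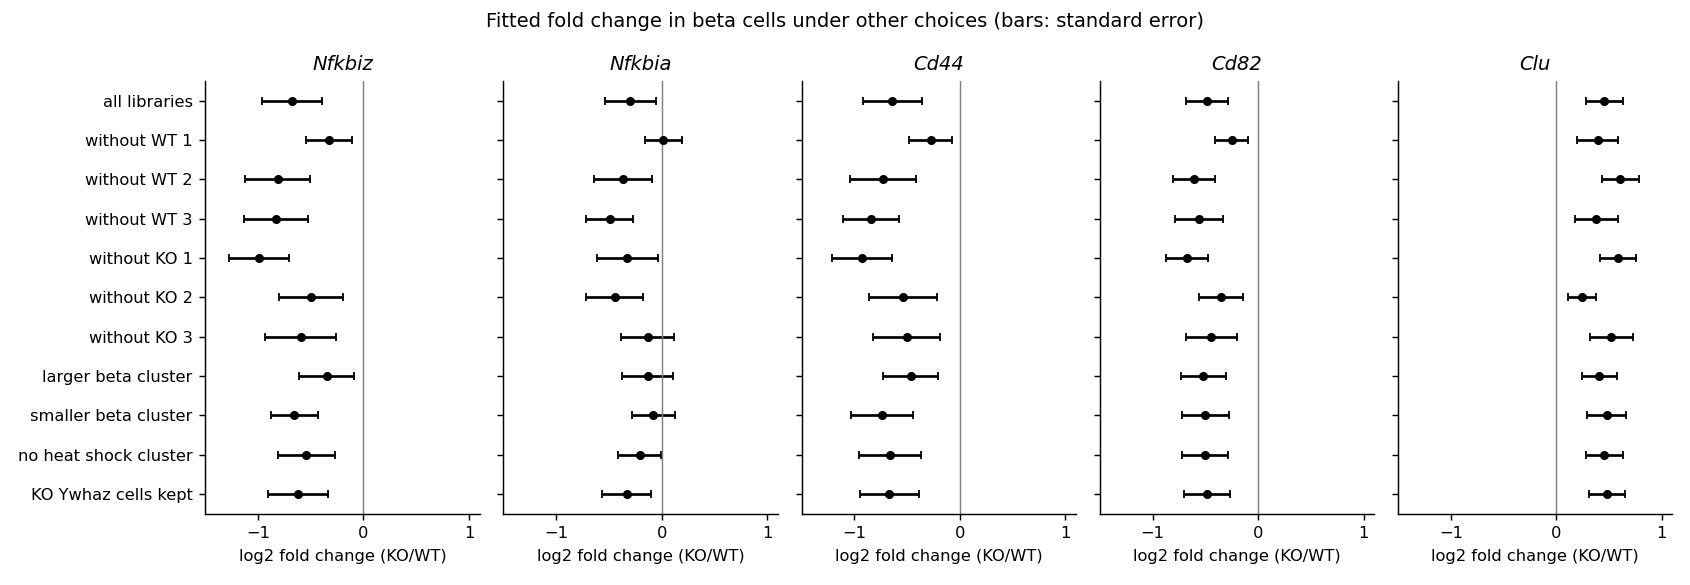
Fitted log2 fold change (KO over WT) in β cells for the 5 genes that entered the fit, with all libraries, without each library in turn, within the larger and the smaller β cell cluster, without the heat shock cluster and with the KO cells that held a Ywhaz UMI; bars give the standard error. Nfkbiz moves to -0.33, Cd44 to -0.28 and Nfkbia to 0.02 without WT library 1, and Clu stays above 0 in each row.

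KO β cells that still held a Ywhaz UMI came from the same islets, and their values lay close to those of the cells without one. In those cells Nfkbiz stood at 15.6, 7.53 and 11.4 CPM in KO libraries 1 to 3, against 14.0, 6.72 and 9.47 CPM in the cells without a Ywhaz UMI. Clu stood at 91.6, 119 and 106 CPM in them. With all KO β cells kept, the log2 fold change was -0.62 for Nfkbiz, -0.67 for Cd44, -0.48 for Cd82 and 0.48 for Clu.

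The share of β cells with at least 1 UMI depended on depth, and for Clu it did not follow the level. Clu was found in 73.3%, 68.9% and 70.6% of WT and 69.9%, 73.3% and 76.0% of KO β cells of libraries 1 to 3, lower in KO in pair 1 and higher in the others. Nfkbiz was found in 42.1%, 24.8% and 29.9% of WT and 28.8%, 13.8% and 21.8% of KO β cells of libraries 1 to 3. Thinned to 5000 UMIs per cell (128 WT and 59 KO cells were shallower and left out), the shares were 7.50% ± 1.74 in WT and 5.22% ± 2.07 in KO (SD, n = 3 each). α cells, where Nfkbiz was lowest, had thinned shares of 2.54% ± 2.87 in WT and 4.21% ± 1.21 in KO. The KO shares of β and α cells lay within 1 SD of each other. Clu was found in 25.6% ± 4.65 of thinned WT and 33.8% ± 3.17 of thinned KO β cells. Cd82 was found in 13.9% ± 1.84 and 9.63% ± 1.74, and Cd44 in 10.4% ± 1.79 and 7.85% ± 1.93, against 1.35% ± 1.18 and 1.48% ± 1.31 for Cd44 in endothelial cells.

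The chemokines and Icam1 lay near the floor in β cells. Cxcl1 (chromosome 5, 90891241 to 90893115, plus strand) gave 27 UMIs in WT library 1 and 0 to 3 in the others. Ccl2 (chromosome 11, 82035571 to 82037453, plus strand) gave 37 UMIs in WT library 1 and 0 to 10 in the others. A single β cell of WT library 1 held 25 of the 27 Cxcl1 UMIs and 35 of the 37 Ccl2 UMIs, together with 3 of Icam1, in 40718 UMIs of which 7166 were Ins2. That cell had a UMI of 0 of the 8 stellate, 0 of the 10 macrophage, 1 of the 9 endothelial and 3 of the 8 ductal markers, and whether it was more than 1 cell was not tested. Cxcl2 (chromosome 5, 90903871 to 90905938, plus strand) gave 0 to 7 UMIs per library, and Icam1 (chromosome 9, 21015985 to 21028817, plus strand) 1 to 13. No difference between genotypes was detectable for these 4 genes at this depth.

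Across cell classes the 10 genes fell into separate homes, and β cells were at or near the low end for most of them. Nfkbia was highest in dendritic cells (671 ± 72.3 CPM, SD over 4 libraries) and endothelial cells (537 ± 115 CPM, n = 6), which overlapped, and lowest in β cells (39.9 ± 8.84 CPM, n = 6). The 4 endocrine classes (β, α and δ cells and the unnamed Ppy-led cluster) did not differ in Nfkbia beyond their ranges. The Ppy-led cluster was not a class apart from β cells. Its β cell markers summed to 233552 to 280443 CPM, and its Ywhaz averaged 155 CPM in WT and 64.3 CPM in KO. Nfkbiz was highest in ductal cells (82.9 ± 11.3 CPM, 5 libraries), whose range lay above the stellate one (47.8 ± 24.6 CPM). Below these, T cells, macrophages, δ cells, B cells, dendritic cells, endothelial cells, the Ppy-led cluster, β cells (12.9 ± 4.66 CPM) and α cells (8.67 ± 2.59 CPM) followed with ranges that overlapped from each to the next. Tnfaip3 stood at 76.1 ± 4.80 CPM in dendritic cells, 34.9 ± 4.96 CPM in macrophages and under 2 CPM on average in each endocrine class.

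Clu was highest in ductal cells (5770 ± 1278 CPM, 5 libraries), with a range above all others, followed by δ cells (541 ± 62.9 CPM, n = 6) and stellate cells (484 ± 381 CPM, n = 6), whose ranges overlapped. Macrophages had the least (19.5 ± 10.5 CPM). Cd44 was highest in ductal (377 ± 57.9 CPM), stellate (280 ± 193 CPM) and macrophage-like cells (147 ± 37.5 CPM), whose ranges overlapped from each to the next. Among endocrine cells it stood at 65.2 ± 14.9 CPM in δ cells and 3.57 ± 1.33 CPM in α cells, with β cells between them. Cd82 ran from 6.56 CPM in endothelial cells to 93.6 CPM in T cells, with β cells (24.0 ± 5.92 CPM) between them and ranges that overlapped from each class to the next except above endothelial cells. Icam1 was highest in dendritic cells (182 ± 63.8 CPM), followed by endothelial cells (48.8 ± 19.5 CPM), and stood under 1 CPM in each endocrine class. Insulin UMIs enter the denominator of every CPM and take the largest share in β cells, so levels set across classes carry that difference.

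**Figure D3:**
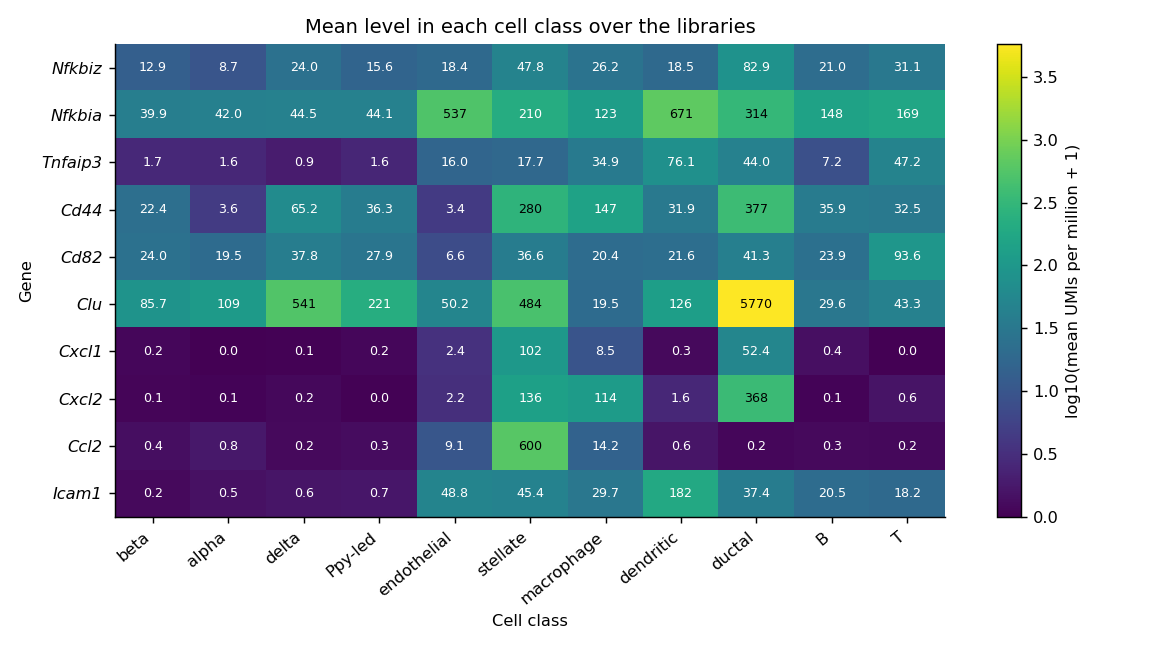
Mean level of each gene in each cell class, in UMIs per 1000000, over the libraries with at least 10 cells of the class; the colour is log10 of the mean plus 1. Clu peaks in ductal cells (5770), Ccl2 in stellate cells (600), Nfkbia in dendritic (671) and endothelial cells (537), and the chemokines and Icam1 are under 1 in the 4 endocrine columns.

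The 3 chemokines were made mainly outside the endocrine cells, and a handful of cells held most of their transcripts. In stellate-like cells Ccl2 stood at 1280, 708 and 48.5 CPM in WT and at 174, 800 and 591 CPM in KO libraries 1 to 3. Cxcl2 there stood at 517, 217 and 0 CPM in WT and at 10.4, 43.3 and 25.3 CPM in KO, but a single cell gave 400 of the 413 UMIs of WT library 2 and a single cell gave 221 of the 285 of WT library 1. In ductal cells a single cell gave 487 of the 511 Cxcl2 UMIs of WT library 2, where the level was 1459 CPM, and another gave 469 of 625 in WT library 3. One endothelial cell gave all 79 Ccl2 UMIs of that class in WT library 1. Cxcl2 in macrophages stood at 37.4 to 183 CPM in the 6 libraries, with a UMI in 19.7% ± 3.55 of WT and 12.1% ± 0.543 of KO cells. In ductal cells these shares averaged 26.3% and 19.4%. The 5% of macrophages with the most Cxcl2 held on average 65.8% of its UMIs in WT and 76.4% in KO. The like averages were 79.7% and 71.2% in ductal cells, and 96.8% and 86.0% in stellate cells.

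Outside β cells, 6 named classes had at least 10 cells in every library and were tested (α, δ, endothelial, stellate, macrophage and B), which gave 41 tests of the 10 genes. The Ppy-led cluster had at least 10 cells in every library too, but it stayed unnamed and was not tested. None passed an FDR of 0.05 (Benjamini-Hochberg over all genes of the class) in edgeR's quasi-likelihood fit, and none in DESeq2. At an unadjusted p under 0.05 there were 4 by edgeR and 3 by DESeq2, and by edgeR the share of all genes under it ran from 1.83% in stellate to 5.89% in B cells. In the same fits the share of all genes called was 0% in α, endothelial, stellate and B cells, 0.0185% in δ cells and 0.013% in macrophages. With the replicate block, in the classes where the numbers paired the libraries, 0.114% of genes were called in endothelial cells and 0.546% in macrophages, again with none of the 10 among them. In α and δ cells taken as 1 class, 0 of 5 genes were called, of 0% of all genes without the block and 0.175% with it. Ductal, dendritic and T cells were too few in at least 1 library for a test.

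Macrophage-like cells, which do not use the insulin promoter, had the largest Nfkbiz difference of the 6 classes. Ywhaz itself was lower in KO there, at 254, 248 and 252 CPM in WT and 204, 205 and 206 CPM in KO libraries 1 to 3. The part of that Ywhaz difference in these results was not tested. Nfkbiz stood at 50.6, 24.3 and 37.8 CPM in WT and at 12.8, 18.8 and 13.2 CPM in KO libraries 1 to 3, from 12 to 49 UMIs each. Every WT library lay above every KO library, as was so, in either direction, for 11.8% of the 7695 genes tested there. The log2 fold change was -1.18 ± 0.31 (SE), with an edgeR adjusted p of 0.892, or 0.0944 with the replicate block. The adjusted p ran from 0.00736 to 1.00 over its 12 alternatives, the lowest being the fit with no filter on low counts. The log2 fold change lay between -1.44 and -0.91 when each library was left out. A Nfkbiz UMI was found in 31.2%, 18.2% and 26.7% of WT and in 12.3%, 14.2% and 14.1% of KO macrophages, although a single cell gave 21 of the 49 UMIs of WT library 1.

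Cd44 in macrophages stood at 167, 202 and 151.0 CPM in WT and at 150.8, 99.3 and 111 CPM in KO, groups that were apart by less than 1 CPM. Its log2 fold change was -0.47 ± 0.17 (SE, edgeR adjusted p = 0.892). Nfkbia, Tnfaip3 and the other 6 genes overlapped between genotypes in macrophages. Ins2, which macrophages do not make, was higher in each KO library than in the WT library of the same number there, by 1.19, 1.26 and 1.07 on the log2 scale, and its part in these results was not tested. Macrophage markers, of which all 10 were detected, summed to 18016 to 21832 CPM in WT and 18506 to 20457 CPM in KO macrophages.

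**Figure D4:**
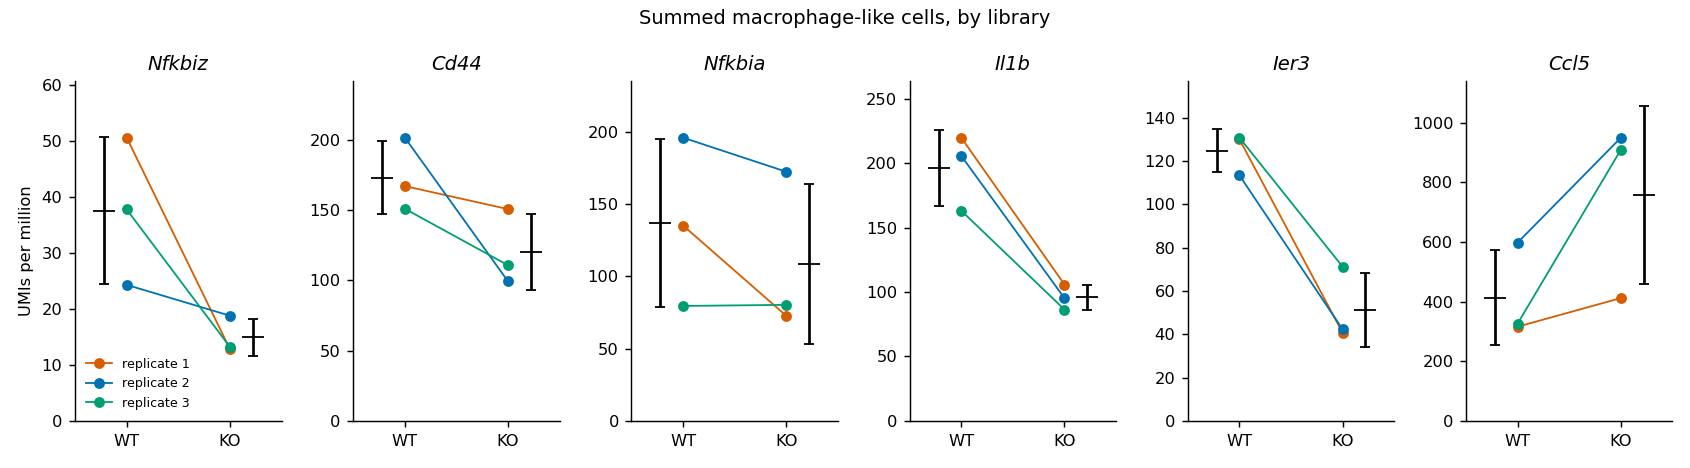
Levels in summed macrophage-like cells, in UMIs per 1000000, for 3 of the 10 genes (Nfkbiz, Cd44, Nfkbia) and 3 further pathway genes (Il1b, Ier3, Ccl5); lines join libraries of the same number, and bars give the mean ± SD (n = 3). The 3 WT values lie above the 3 KO values for Nfkbiz, Cd44, Il1b and Ier3, and the groups overlap for Nfkbia and Ccl5.

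The differences in the other classes follow. Endothelial Nfkbiz stood at 22.8, 20.1 and 21.5 CPM in WT and at 18.5, 10.9 and 16.7 CPM in KO. The groups were apart, as they were for 7.69% of all endothelial genes tested. Its log2 fold change was -0.45 ± 0.23 (SE, edgeR adjusted p = 0.996), or -0.27 without KO library 2. The endothelial sum of that library held 100221 CPM of Ins2, against 18737 to 48000 CPM in the others. Its B cell markers summed to 1137 CPM, against 0.694 to 90.0 CPM. The part of this RNA was not tested. δ cells kept a like Nfkbiz level in both genotypes, with 22.9, 27.5 and 25.1 CPM in WT and 23.5, 26.0 and 19.3 CPM in KO (log2 fold change -0.10 ± 0.19, SE). Cd82 in δ cells stood at 39.3, 33.8 and 30.7 CPM in WT and at 47.8, 36.4 and 38.6 CPM in KO (log2 fold change 0.27 ± 0.15, SE, edgeR adjusted p = 1.00). Ins2 in the δ cell sums was higher in KO in each pair, by 0.56, 1.18 and 0.80 on the log2 scale, and its part was not tested. Clu in B cells had the lowest unadjusted p of the 41 tests. It stood at 9.01, 16.4 and 37.0 CPM in WT and 16.5, 47.7 and 50.9 CPM in KO, and had a log2 fold change of 1.71 ± 0.35 (SE, edgeR adjusted p = 0.373). The groups overlapped, and the UMIs behind these levels ran from 1 in KO library 1 and 4 in WT library 3 to 129 and 505 in WT and KO libraries 2. The log2 fold change was 1.80 without WT library 3, 1.81 without KO library 1 and 1.54 without KO library 2. Ins2 in the same B cell sums was higher in KO in each pair, by 1.82, 1.33 and 0.33 on the log2 scale, and its part was not tested. Stellate Cxcl2 was the remaining one of the 4 tests under an unadjusted 0.05. It had a log2 fold change of -3.02 ± 1.18 (SE, edgeR adjusted p = 0.999) and rested on the single cells named above.

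**Figure D5:**
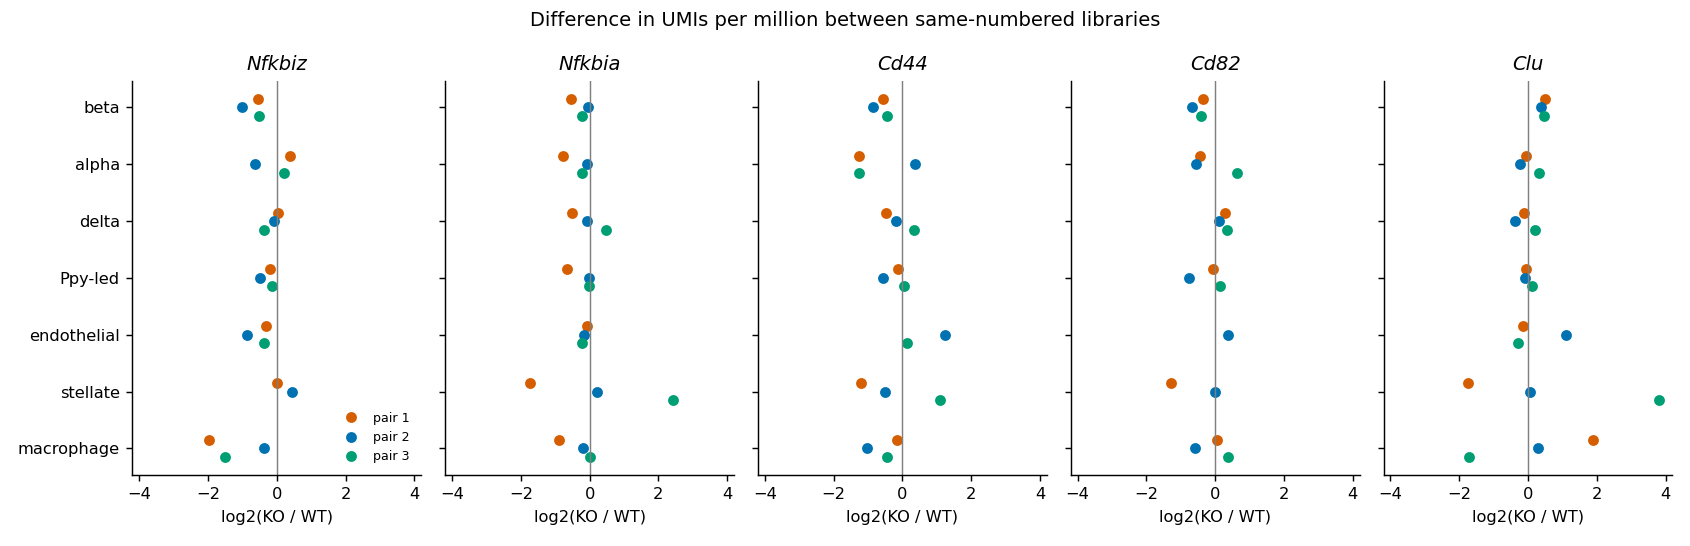
Log2 difference in UMIs per 1000000 between KO and WT libraries of the same number, for 5 genes and 7 cell classes; a point is 1 pair, drawn where both libraries had more than 3 UMIs. In β cells the 3 points of Nfkbiz, Cd44 and Cd82 lie left of 0 and those of Clu right of 0, while in δ cells the 3 points of Cd82 lie right of 0.

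The wider NF-κB pathway had no call in β cells without the block. Of 73 pathway genes in 8 roles, 43 entered the fit, 24 lower and 19 higher in KO, with 0 called and a median log2 fold change of -0.01, against 0.00 over all genes tested. Among the 63 genes that are not part of the chosen set, 38 were tested, 20 lower and 18 higher, and 2 had an unadjusted p under 0.05, as did 4.76% of all genes tested in β cells. Nfkb1 was the most abundant subunit (29.5 ± 3.44 CPM, SD, n = 6; log2 fold change -0.17 ± 0.08, SE), and Nfkb2, the subunit of the noncanonical arm, had the largest difference of the subunits (-0.62 ± 0.20, SE, edgeR adjusted p = 0.882). Among brakes, the deubiquitinase gene Cyld led in level (48.6 ± 4.59 CPM), and none differed by more than the -0.12 ± 0.10 of Otud7b. Among kinases and adaptors, Irak1 was the most abundant at 109 ± 8.36 CPM, and the adaptor gene Myd88 had the largest difference, a log2 fold change of -0.12 ± 0.11 (SE). The interleukin-1 receptor gene Il1r1 was the most abundant gene of the list (285 ± 39.8 CPM; log2 fold change -0.01 ± 0.11), and the lymphotoxin β receptor gene Ltbr had the largest difference of the ligands and receptors (0.18 ± 0.10). Cxcl16 was the only chemokine fitted, at 5.59, 9.0 and 10.8 CPM in WT and 12.4, 11.4 and 15.5 CPM in KO (log2 fold change 0.65 ± 0.17, SE, edgeR adjusted p = 0.882, or 0.0450 with the replicate block). With the block, 5 of the 43 genes were called, of which Clu, Nfkbiz, Cd44 and Cd82 restate the choice of the genes. Of the 38 others 1 was called (Cxcl16), where 0.215% of all genes were.

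Early response genes, which many stimuli and cell dispersal induce, were set beside the pathway. The list held immediate-early genes together with the heat shock genes Hspa1a and Hspa1b and with Socs3. Of 17 such genes, 11 were tested in β cells, 9 lower and 2 higher, with a median log2 fold change of -0.27 and 0 called. With the replicate block Egr1 (-0.57 ± 0.06, SE, edgeR adjusted p = 0.00587) and Jun (-0.50 ± 0.08, SE, edgeR adjusted p = 0.0268) passed. The 17 genes, heat shock genes included, summed to 689, 610 and 620 CPM in WT and 680, 466 and 543 CPM in KO β cells. Their part in the differences of the 10 genes was not tested.

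In macrophages 59 of the 73 pathway genes were tested, 45 lower and 14 higher, with a median log2 fold change of -0.16, against 0.00 over all genes tested, and 0 were called. With the replicate block 3 fell and 1 rose, where 0.546% of all genes were called. Of the 17 early response genes, 16 were tested in macrophages, 14 lower and 2 higher, with a median log2 fold change of -0.18 and 0 called. Il1b, the interleukin-1β gene, stood at 220, 206 and 163 CPM in WT and 106, 95.3 and 86.4 CPM in KO (block log2 fold change -0.95 ± 0.13, SE, edgeR adjusted p = 0.000227). Ier3, an early response and survival gene, stood at 130.1, 113 and 131 CPM in WT and 40.6, 42.3 and 71.2 CPM in KO (-1.23 ± 0.16; edgeR adjusted p = 0.000140). The chemokine genes Cxcl10 (-1.01 ± 0.21; edgeR adjusted p = 0.0187) and Ccl5 (0.92 ± 0.15; edgeR adjusted p = 0.00182) moved in opposite directions. Without the block their adjusted p-values were 0.137, 0.176, 0.913 and 0.892 in the order given. In endothelial cells 36 of 52 pathway genes were lower and in B cells 33 of 44, whereas in δ cells 27 of 46 and in stellate cells 33 of 53 were higher, with none called in any.

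The genes most like Nfkbiz over the 6 β cell sums, ranked by Pearson's r of log2(CPM + 1) among 9317 other genes, were Cd82 (r = 0.99), Gle1 (0.99), Otub2 (0.98), Paip2b (0.98) and Tmtc1 (0.98). Cd44 ranked 14th at 0.96, Nfkbia stood at 0.52, and Clu was near the opposite end at -0.92. The 6 points share the genotype split, the depth of WT library 1 and the cluster makeup of KO library 2, so r describes these libraries only. Within single β cells thinned to 5000 UMIs, Nfkbia was found in 28.2%, 22.2% and 13.3% of the Nfkbiz-positive and in 18.3%, 15.2% and 12.1% of the Nfkbiz-negative cells of WT libraries 1 to 3. In KO the shares were 10.0%, 23.8% and 22.6% against 14.2%, 14.9% and 11.3%. The Nfkbiz-positive groups held 21 to 75 cells each, and the direction was not the same in all 6 libraries.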

How the data were processed

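The deposited files held UMI counts per gene and barcode, which the authors made with Cell Ranger 6.0.2 against mm10 per the labels. The 10 genes and the gene lists were chosen with earlier results of these data known. Cells with at least 500 genes and at most 10% mitochondrial UMIs were kept, and doublets were marked per library with Scrublet: by its automatic cutoff, or, where that marked under 0.5%, as the highest scores at 0.8% per 1000 barcodes. Cells were clustered in scanpy 1.11.5 (2000 variable genes without the 10 genes, Ywhaz or insulin; 30 components; 15 neighbours; Leiden resolution 1) and named from marker lists. A Ppy-led cluster of 1362 cells mixed hormones and, like 10070 kept cells in all, stayed unnamed. UMIs were summed per library and class, and given as CPM of the sum. KO and WT sums were compared with edgeR 4.0.16 (TMM, quasi-likelihood; R 4.3.3), with Benjamini-Hochberg adjustment over all genes tested; a call needs FDR under 0.05 and a log2 fold change over 0.1 in size. β cell genes needed a UMI in over 15% of cells of either genotype; other classes used filterByExpr. On simulated β cell sums of 9318 genes, 100% of 200 genes changed 2-fold were recovered, with 42% in endothelial cells (9623 genes) and 28% in macrophages (7695 genes). False calls numbered 6, 3 and 1 in the same order. The simulated spread between libraries was a set value, smaller for β cells, and was not taken from the data. These shares therefore do not give the power of the real fits. Same-numbered libraries deviated together in β cells (r = 0.53, 0.48 and 0.25), endothelial cells (0.40, 0.48 and 0.12), macrophages (0.24, 0.34 and 0.14) and α with δ cells (0.42, 0.20 and 0.15), but not in every pair of α, δ, stellate or B cells alone. Named are the 10 genes, pathway genes that passed a test, per role the most abundant gene and the one with the largest difference in β cells, and the 5 genes most like Nfkbiz. Stellate, ductal and other rare classes hold few cells, and counting error adds to their spread. DESeq2 1.42.0, other scalings and filters, the replicate block, other clusterings and leaving out each library were alternatives. UMIs of overlapping genes follow the authors' counting. Of 32285 gene identifiers, 32158 matched GENCODE vM21, whose build is that of the files.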

Additional observations from a re-analysis of the deposited data

Results flagged for a closer look

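Cd82 moved in opposite directions in 2 endocrine classes. Its mean log2 difference over the 3 same-numbered pairs (KO minus WT) was -0.48 in β cells, lower in 3 of 3 pairs, and 0.24 in δ cells, higher in 3 of 3 pairs. The difference between the classes was not tested, and the β cell value was among those that chose the genes. The δ cell value turned to a log2 fold change of -0.05 at Leiden resolution 2. The δ class there was a larger one, with 193 to 380 cells per library against 79 to 138 in the main clustering.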

How the results depend on the processing

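No gene of the 10 was called in β cells as reported. With the replicate block 4 were called, as with the block and all KO cells kept (4), against 2 in the larger and 3 in the smaller β cell cluster alone with the block. The last 3 of these settings were chosen after seeing the data. Over all genes the 4 settings called 20 of 9318, 15 of 9342, 12 of 9713 and 51 of 9237, in the order given. In other classes 2 tests passed without the low-count filter (Nfkbiz in macrophages, log2 fold change -1.18, and Clu in B cells, 1.66) and 1 with the block (Clu in B cells, 1.51, where the numbers did not pair the libraries). Over all genes, 106 of 16091 in macrophages and 91 of 18678 in B cells passed without the filter. With the block 19 of 6941 passed in B cells. Pathway gene calls over all classes rose from 0 to 2 with DESeq2, 8 without the filter and 10 with the block. Those 10 include the 4 β cell calls that restate the choice of the genes, and Clu in B cells. Over all genes, calls in β cells rose from 1 of 9318 to 7, 10 (of 22026) and 20 in the same settings. In macrophages they rose from 1 of 7695 to 6, 106 (of 16091) and 42, while the block called 0 in α and stellate cells. Cd82 in δ cells reversed to -0.052 at Leiden resolution 2, where the δ class held 193 to 380 cells per library against 79 to 138. Nfkbia in β cells was 0.02 without WT library 1. The cause was not tested for any of these. Leaving out each library gave -0.99 to -0.33 for Nfkbiz, -0.92 to -0.28 for Cd44, -0.67 to -0.25 for Cd82 and 0.24 to 0.61 for Clu in β cells. Chemokines and Icam1 in β cells are limited by depth.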
